A study of Saccharomyces cerevisiae with 12 samples.

Results

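The comparison described here is that of oxidized with reduced yeast cells after 48 hr of growth. Its members are all genes that averaged 20 PPM or more across the study's 12 libraries, which left 4776 of 6645 genes, compared over 6 of the 12 libraries, 3 oxidized and 3 reduced. PPM is the number of deduplicated reads of a gene divided by the reads of its library and multiplied by 1e6. Both groups were haploid Saccharomyces cerevisiae of the strain BY4741, which carried a plasmid for Grx1-roGFP2 in the cytosol. Grx1-roGFP2 is a green fluorescent protein fused to human glutaredoxin 1, and its excitation spectrum follows the balance of reduced and oxidized glutathione. The cells were grown in casein amino acid medium with glucose, and age was counted from a mid-log culture. At 48 hr they were sorted by the fluorescence ratio of the sensor into the oxidized and the reduced group, with dead cells gated out by propidium iodide. The other 6 libraries came from the same sort at 72 hr. The methods call the 3 libraries of a group biological replicates, but do not say whether oxidized and reduced libraries of 1 number came from the same culture. Each library is the RNA of many sorted cells, so fewer cells of a kind and less RNA per cell cannot be told apart.

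When glucose runs out, budding yeast turns to the ethanol, acetate and glycerol left in the medium. It then induces genes that glucose represses: enzymes of the glyoxylate cycle, which turn acetyl units into C4 acids, of gluconeogenesis, which build sugar from them, and of β-oxidation in the peroxisome. Cat8 and Sip4 switch on many of these genes through the carbon source response element of their promoters, and Mig1 holds them off while glucose is present. Other programs of cells past exponential growth are the use of poor nitrogen sources under the GATA factors Gln3 and Gat1, heat shock proteins under Hsf1, and stress proteins under Msn2 and Msn4.

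At 48 hr the transcripts that were lower in oxidized cells were led by genes for growth on ethanol, acetate and fatty acids and for the use of poor nitrogen sources. Those that were higher included high-affinity hexose transporters, invertase, heat shock proteins, subunits of the ATP synthase and mannoproteins of iron uptake. By limma on log2(PPM + 10), with Benjamini-Hochberg adjustment over 4776 genes, 184 genes passed the threshold of 0.05, which is 3.85% of those tested. Of these, 68 were higher (1.42%) and 116 lower (2.43%) in oxidized cells. The counts of called members in each list below are to be read beside these shares over all genes. The 3 oxidized and 3 reduced libraries did not overlap for 179 of the 184, against 17.5% of all genes tested. The calls were made on these same libraries, so their separation, here and for single genes below, describes the values and adds no further support. The median difference over all genes was -0.07 on the log2 scale. Of the calls, 71 held in all of the 13 other fits tried, 20 of them higher and 51 lower. Without reduced replicate 1, the deepest library, 103 genes passed, and without oxidized replicate 3 only 29 were higher.

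**Figure D1:**
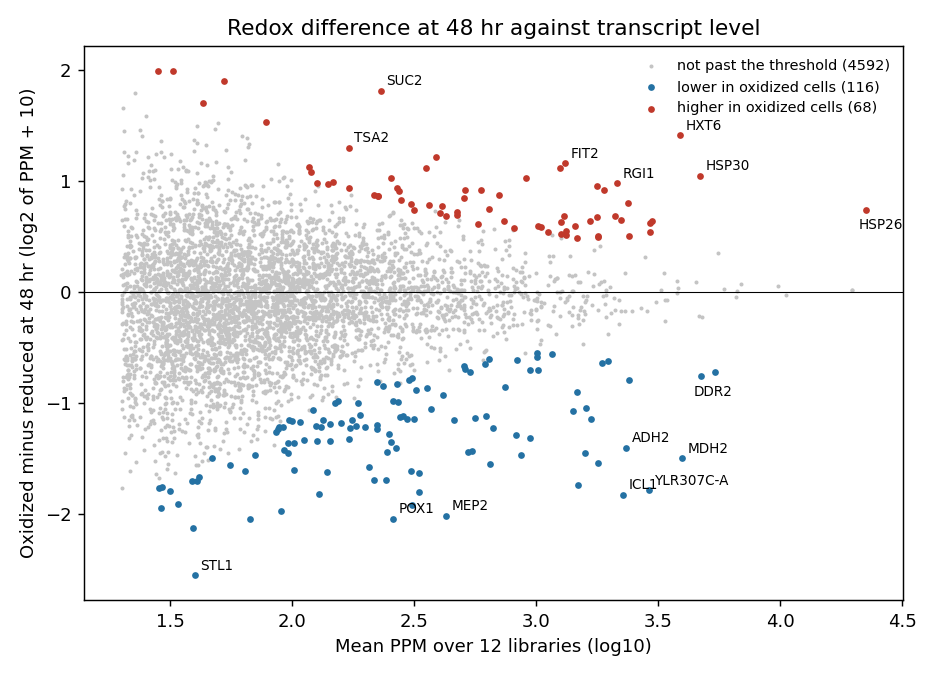
Each point is 1 of the 4776 genes, with its mean PPM over 12 libraries in log10 and its oxidized minus reduced difference at 48 hr in log2(PPM + 10). Red points (68) were higher and blue points (116) lower past the threshold, and among the labelled genes STL1 lies lowest at -2.55 and SUC2 highest at 1.81.

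The libraries held between 90403 and 189735 reads in the oxidized group and between 119178 and 241084 in the reduced group, so 1 read is worth 4.15 to 11.1 PPM, and a gene at 0 allows up to 3 reads, 12.4 to 33.2 PPM. Libraries of 1 group correlated at 0.848 to 0.909 across genes and libraries of different groups at 0.842 to 0.898. Genotype markers were at 0 in all 6 libraries for MET17, and LEU2 had 2 reads, in oxidized replicate 2. HIS3 and URA3, also named as mutant, stood at 158 to 264 PPM and 1117 to 1707 PPM. The methods name the mating type MATα, yet the a-specific genes MFA1, MFA2 and STE2 were present and the 6 a-specific markers summed to 1054 to 1544 PPM, against 70.5 to 199 PPM for the 4 α-specific markers. In both groups the mating type markers did not pass the test. The 8 markers of young daughter cells summed to 1203 to 1316 PPM in oxidized and 846 to 1175 PPM in reduced libraries, with none past the threshold, and their part in the results was not tested.

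Promoters of the lower group are shown first, for the element of Cat8 and Sip4, which is known to act in many of these genes. The core of the carbon source response element, CC and CCG with 6 bases of any kind between them, on either strand, stood within 500 bases before the start codon in 43.1% of the 116 lower genes, in 21.9% of 64 higher genes and in 21.2% of all 4674 promoters read. At least 2 copies stood in 16.4% of lower genes and 3.70% of all. Among the lower genes of the glyoxylate and gluconeogenesis list, 12 of 17 promoters held it, and 3 of 5 among the members that did not pass. In fatty acid oxidation these shares were 8 of 12 and 2 of 9. The promoters of 5 genes of the first list are printed here with CRC1 of the carnitine shuttle, 5′ to 3′ in the direction of the gene, with the element in capitals.
ICL1: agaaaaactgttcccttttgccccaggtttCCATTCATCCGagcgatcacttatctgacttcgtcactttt
PCK1: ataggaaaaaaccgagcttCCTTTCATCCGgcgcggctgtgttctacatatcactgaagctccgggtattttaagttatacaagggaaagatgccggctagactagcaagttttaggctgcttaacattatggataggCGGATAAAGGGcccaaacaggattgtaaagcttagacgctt
FBP1: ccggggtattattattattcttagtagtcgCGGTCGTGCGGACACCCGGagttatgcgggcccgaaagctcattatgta
MDH2: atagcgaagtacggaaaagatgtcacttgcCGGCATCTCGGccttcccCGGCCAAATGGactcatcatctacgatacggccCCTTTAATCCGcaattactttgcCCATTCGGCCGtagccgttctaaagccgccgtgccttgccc
IDP2: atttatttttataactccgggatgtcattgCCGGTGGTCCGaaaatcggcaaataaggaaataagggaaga
CRC1: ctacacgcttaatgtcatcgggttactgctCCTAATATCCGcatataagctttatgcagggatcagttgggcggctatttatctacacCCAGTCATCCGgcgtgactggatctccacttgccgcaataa
In the sacCer3 build these stretches lie at chrV:287272-287342 on the minus strand for ICL1, chrXI:630652-630830 (plus) for PCK1, chrXII:875184-875262 (minus) for FBP1, chrXV:83257-83401 (minus) for MDH2, chrXII:504258-504328 (plus) for IDP2 and chrXV:514496-514624 (minus) for CRC1. The sequences are those of the RefSeq genome. The MDH2 promoter holds 4 copies, 2 on each strand, and the 2 copies of FBP1 overlap. A match is a description of the letters, not a measurement of binding.

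Several other elements were also more frequent in lower genes than in all promoters. The stress response element AGGGG stood in 56.0% of lower, 53.1% of higher and 35.9% of all promoters, and at least 2 copies stood in 29.3%, 23.4% and 9.01%, so both groups held it more often than promoters at large. The Mig1 element GCGGGG was present in 15.5% of lower, 12.5% of higher and 6.16% of all promoters. GATAAG, the GATA element, was found in 31.9% of lower, 26.6% of higher and 23.0% of all. The unit TTCNNGAA of the heat shock element was in 37.5% of higher, 17.2% of lower and 21.1% of all, while the opposite arrangement GAANNTTC was in 14.1%, 18.1% and 19.2%. CCAAT of the Hap complex, which drives respiratory genes, stood in 60.9% of higher, 72.4% of lower and 63.0% of all promoters. For the Rgt1 element CGGANNA, the shares were 45.3% of higher, 57.8% of lower and 42.9% of all. CACGTG was found in 7.81% of higher, 5.17% of lower and 6.42% of all, and the Aft1 element TGCACCC in 3.12%, 3.45% and 2.35%. Every element was searched on both strands. Matches can overlap, so that 1 stretch counts for several elements, as in MDH2, where a copy of CGGANNA lies within a copy of the carbon source element.

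**Figure D2:**
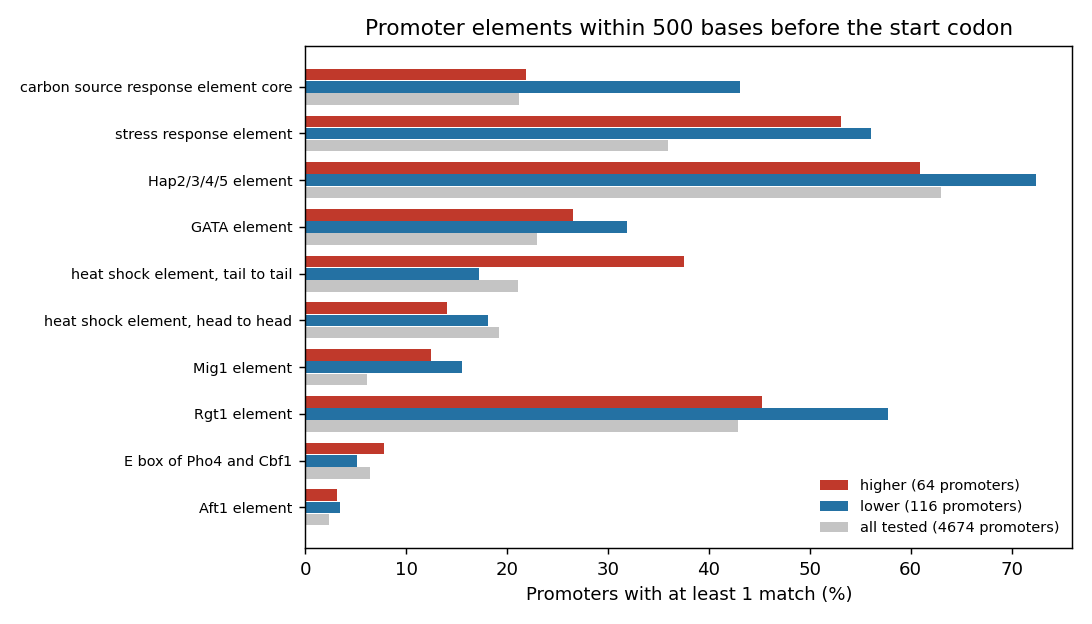
Bars give the percentage of promoters (500 bases before the start codon, both strands) with at least 1 match to each element, in red for the 64 higher genes with a promoter read, in blue for the 116 lower genes and in grey for all 4674. Among the elements more frequent in lower genes than in all promoters were the carbon source element (43.1% against 21.2%), AGGGG (56.0% against 35.9%) and the Mig1 element (15.5% against 6.16%). The heat shock unit TTCNNGAA, drawn as tail to tail, was more frequent in the higher genes (37.5% against 21.1%).

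Genes for the use of C2 and C3 compounds gave the broadest difference: 17 of 22 tested members were lower, none was higher, and their median was -1.28, against -0.07 over all genes. When each library was left out in turn, 14 to 18 of them were lower. ICL1 encodes isocitrate lyase, which splits isocitrate and opens the glyoxylate cycle. In libraries 1, 2 and 3 it stood at 951, 690 and 622 PPM in oxidized cells and at 3128, 2660 and 2256 PPM in reduced cells. The groups lie far apart, since the highest oxidized library reached less than the lowest reduced one by a wide margin. The mean was 3.55 times higher in reduced cells and the difference was -1.83 ± 0.16 (SE, n = 3 libraries per group, limma adjusted p = 3.6e-12). MLS1, malate synthase, which makes the next step, fell from 1987, 1947 and 1662 PPM in reduced to 940, 681 and 480 PPM in oxidized cells (-1.45 ± 0.17, limma adjusted p = 9.6e-09). The cytosolic malate dehydrogenase MDH2 serves both this cycle and gluconeogenesis, and read 2013, 1342 and 1423 PPM in oxidized against 5529, 3935 and 4038 PPM in reduced cells, with no overlap. ACO1, the aconitase that this cycle shares with the TCA cycle, did not pass (-0.62, limma adjusted p = 0.069).

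Both enzymes that are specific to gluconeogenesis were lower. PCK1 (phosphoenolpyruvate carboxykinase) stood at 686, 420 and 474 PPM in oxidized cells and 2572, 1586 and 1293 PPM in reduced cells, a difference of -1.74 ± 0.18. FBP1, fructose-1,6-bisphosphatase, stood at 221, 214 and 300 PPM against 664, 638 and 714 PPM (-1.43 ± 0.19, limma adjusted p = 2.9e-07). For both genes every oxidized library was under every reduced one. The counting window of PCK1 overlaps that of UBP11 on the other strand, and the use of strand in counting is not stated, so the UBP11 call is uncertain. It was also lost without oxidized replicate 2 or 3 or any reduced library (limma adjusted p up to 0.26).

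The enzymes that bring ethanol and acetate into metabolism moved in the same direction. ADH2, the alcohol dehydrogenase that oxidizes ethanol, read 1250, 867 and 1128 PPM in oxidized and 3032, 2458 and 3098 PPM in reduced cells. ACS1, an acetyl-CoA synthetase, read 332, 289 and 416 PPM against 1020, 722 and 729 PPM. For the mitochondrial aldehyde dehydrogenase ALD4 the values were 476, 233 and 427 PPM against 937, 621 and 880 PPM. None of the 3 genes had overlapping groups, and the differences were -1.40 ± 0.17, -1.23 ± 0.19 and -1.12 ± 0.21 (limma adjusted p = 1.5e-08, 5.7e-06 and 0.00017). The transporters followed. ADY2, an acetate transporter of the plasma membrane, read 785, 699 and 986 PPM in oxidized and 2451, 2098 and 2677 PPM in reduced cells. SFC1 exchanges succinate for fumarate across the mitochondrial membrane and was tight in both groups, at 221, 214 and 206 PPM against 680, 621 and 632 PPM. IDP2, a cytosolic source of NADPH, stood at 166, 55.9 and 94.9 PPM against 469, 319 and 316 PPM. Their differences were -1.54 ± 0.15, -1.55 ± 0.20 and -1.80 ± 0.26, and all 3 calls held in each of the other fits.

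The calls of 5 members of this list rested on single libraries. CIT2, the peroxisomal citrate synthase, lost its call without oxidized replicate 1 or 2 or reduced replicate 1 (limma adjusted p up to 0.10). MDH3, the peroxisomal malate dehydrogenase, lost it without oxidized replicate 2 or 3 or reduced replicate 1 or 3 (limma adjusted p up to 0.23), and ICL2, a mitochondrial lyase of the methylcitrate cycle, without oxidized replicate 3 or reduced replicate 1 or 3 (up to 0.10). PDH1, also of the methylcitrate cycle, depended on oxidized replicate 3 and reduced replicate 3 (up to 0.12), and the lactate transporter JEN1 on oxidized replicate 1 (0.23).

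**Figure D3:**
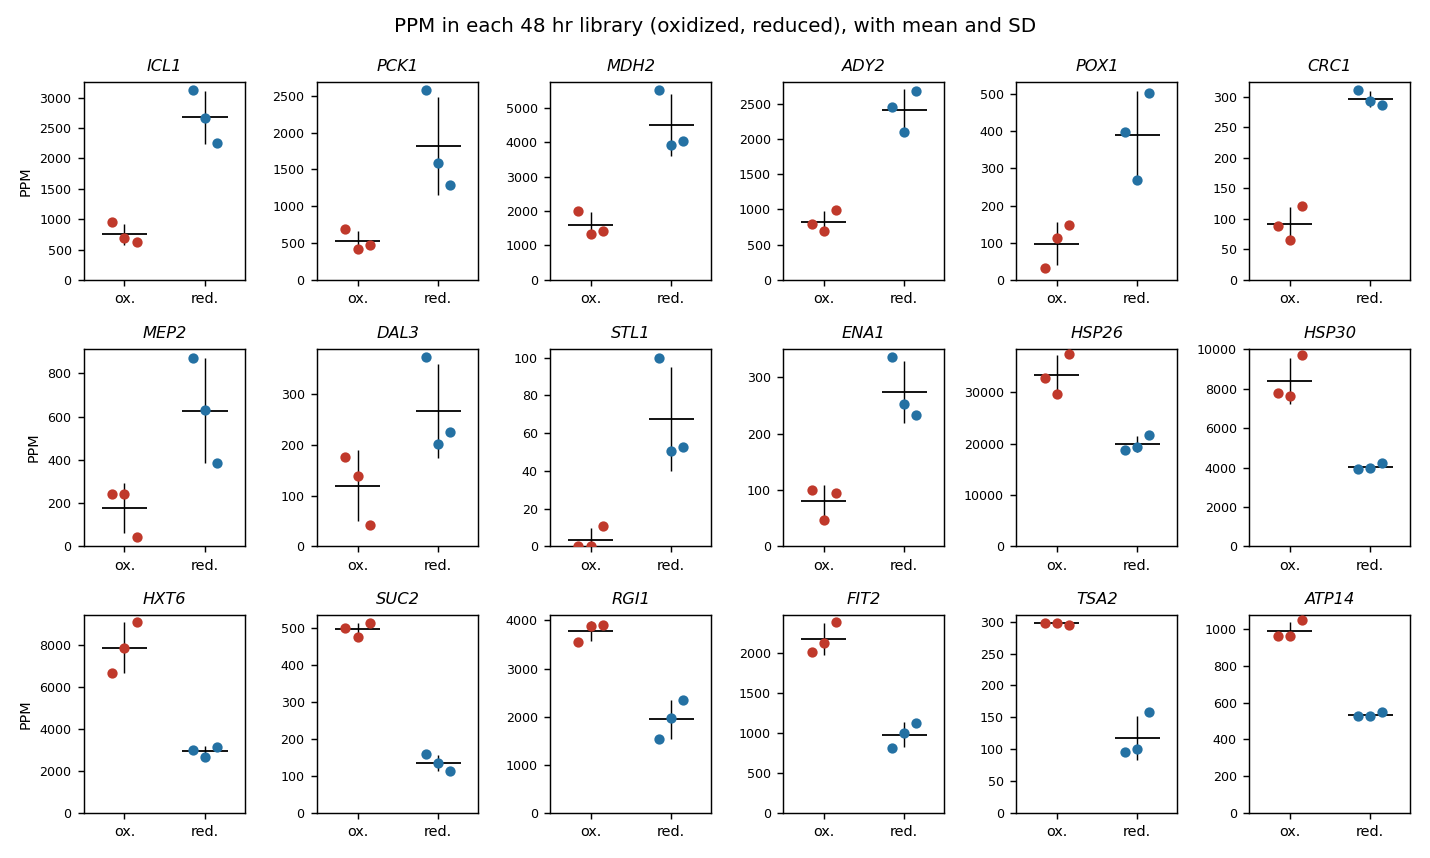
PPM of 18 genes in each of the 3 oxidized (red) and 3 reduced (blue) libraries at 48 hr, with the mean (horizontal line) and SD (vertical line), each panel on its own linear axis from 0. In all 18 genes, which were chosen among the calls, the groups do not overlap. ICL1, for example, lies between 622 and 951 PPM in oxidized and between 2256 and 3128 PPM in reduced cells.

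Fatty acid oxidation was lower as well. Of 21 members tested in this list, 12 were lower and none higher, with a median of -1.15, and 8 to 11 were lower when each library was left out. Among 8 β-oxidation enzymes 6 passed, and among 5 genes of the carnitine shuttle 4. POX1, the acyl-CoA oxidase that starts the peroxisomal cycle and releases hydrogen peroxide, read 33.2, 112 and 148 PPM in oxidized and 398, 269 and 504 PPM in reduced cells. The oxidized libraries varied widely among themselves, yet all were under the lowest reduced one (-2.05 ± 0.30, limma adjusted p = 1.8e-06). ECI1, an enoyl-CoA isomerase for unsaturated fatty acids, stood at 66.4, 140 and 137 PPM against 294, 285 and 338 PPM (-1.41 ± 0.25, limma adjusted p = 7.2e-05). CTA1, the peroxisomal catalase that removes the peroxide POX1 makes, was also lower, at 144, 93.2 and 100 PPM against 224, 285 and 308 PPM (-1.22 ± 0.27, limma adjusted p = 0.0022).

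The carnitine shuttle carries acetyl units from peroxisome and cytosol into mitochondria. CRC1, the carrier of acetyl-carnitine in the mitochondrial inner membrane, read 88.5, 65.3 and 121 PPM in oxidized and 311, 294 and 286 PPM in reduced cells (-1.63 ± 0.23, limma adjusted p = 9.7e-07). CAT2, the acetyl transferase of peroxisomes and mitochondria, stood at 243, 224 and 369 PPM against 651, 604 and 579 PPM, and YAT2, a cytosolic one, at 254, 177 and 174 PPM against 444, 394 and 534 PPM. All 3 genes separated the groups. Of the peroxisome biogenesis genes, which build the organelle, 2 of 29 were lower, PEX2 and PEX11, with a list median of -0.09. The calls of POT1 (thiolase) and PEX2 were lost without reduced replicate 3 (limma adjusted p = 0.055 and 0.053). Those of SPS19 were lost without oxidized replicate 1 or reduced replicate 1 (up to 0.23), of PEX11 without oxidized replicate 3 or reduced replicate 1 (up to 0.083) and of YAT1 without oxidized replicate 2 or reduced replicate 1 or 2 (up to 0.10). DCI1 and the fatty acid activating FAA2, whose groups overlapped, each lost theirs without any of 4 libraries: oxidized replicate 3 and the reduced ones for DCI1 (up to 0.18), and oxidized replicates 2 and 3 and reduced replicates 1 and 3 for FAA2 (up to 0.14).

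Glycerol genes gave 4 lower and none higher of 11 tested. STL1, a proton symporter for glycerol that glucose represses, had reads in only 1 oxidized library, at 0, 0 and 10.5 PPM, against 99.6, 50.3 and 52.6 PPM in reduced cells. These values rest on 2 oxidized and 37 reduced reads, a ratio of 14.5 in favour of reduced cells with a 95% counting interval of 3.75 to 124 (exact, Clopper-Pearson on the share of reads). GUT2, the mitochondrial glycerol 3-phosphate dehydrogenase, read 188, 149 and 179 PPM against 535, 319 and 331 PPM, but its call was lost without reduced replicate 1 (limma adjusted p = 0.073). GUT1, glycerol kinase, lost its call without oxidized replicate 2 or 3 or reduced replicate 1 or 3 (up to 0.27), and GPD1, which makes glycerol 3-phosphate, without oxidized replicate 1 or 3 or any reduced library (up to 0.12). No member of the trehalose and glycogen list (19 tested) passed, and their median was -0.07.

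Nitrogen genes were lower in 8 of 39 tested, with a median of -0.55 and no member higher, and 3 to 8 were lower when single libraries were left out. MEP2 encodes the high-affinity ammonium permease, which is also a sensor in filamentous growth. It stood at 243, 242 and 42.2 PPM in oxidized and 871, 629 and 384 PPM in reduced cells, so oxidized replicate 3 was far under the others (-2.02 ± 0.31, limma adjusted p = 5.7e-06). GAP1, the general amino acid permease, read 77.4, 74.6 and 94.9 PPM against 411, 176 and 323 PPM (-1.69 ± 0.26, limma adjusted p = 7.0e-06). DUR1,2, urea amidolyase, read 55.3, 65.3 and 31.6 PPM against 199, 193 and 203 PPM, with little spread between the reduced libraries (-1.82 ± 0.31, limma adjusted p = 5.0e-05). DAL3, ureidoglycolate lyase of allantoin breakdown, read 177, 140 and 42.2 PPM against 373, 201.4 and 226 PPM. Its call was lost without oxidized replicate 3 or reduced replicate 1 (limma adjusted p up to 0.23).

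Of the 8 lower nitrogen genes, 7 hold GATAAG within 500 bases before the start codon, as do 16 of 31 members that did not pass. The cluster nearest to the far end of the MEP2 window and the 5 copies of DAL3 are shown, with the element in capitals on either strand.
MEP2: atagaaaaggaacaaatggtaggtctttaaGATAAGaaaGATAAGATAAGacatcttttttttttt
DAL3: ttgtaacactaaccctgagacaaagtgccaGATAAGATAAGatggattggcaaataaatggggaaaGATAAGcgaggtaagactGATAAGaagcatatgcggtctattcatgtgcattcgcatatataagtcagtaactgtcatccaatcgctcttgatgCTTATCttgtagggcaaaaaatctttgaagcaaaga
They lie at chrXIV:356958-357023 (plus strand) and chrIX:415619-415814 (minus strand). GLN3, the gene of a GATA factor itself, was among the lower genes at 44.2, 9.32 and 63.2 PPM against 99.6, 75.5 and 165 PPM, on 17 and 55 reads. The GLN3 call was lost without oxidized replicate 2 or reduced replicate 1 or 3 (limma adjusted p up to 0.31). Those of MEP1, whose groups overlapped (without oxidized replicate 1 or reduced replicate 1 or 2, up to 0.39), of the proline permease PUT4 (oxidized replicate 1 or 2, reduced replicate 1 or 2, up to 0.17) and of the glutamate dehydrogenase GDH1 (oxidized replicate 2 or 3, reduced replicate 1 or 2, up to 0.23) were no firmer.

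Most respiratory genes leaned higher in oxidized cells. Of 39 tested genes of oxidative phosphorylation, 34 had a difference above 0, with a median of 0.39. Past the threshold 7 were higher and 2 lower, where 1.42% and 2.43% of all genes were. In 23 of the 39 the oxidized libraries were all above the reduced ones, and in 2 all below (6.76% and 10.7% of all genes). Without single libraries 2 to 7 were higher. ATP14, a subunit of the mitochondrial ATP synthase, read 962, 960 and 1049 PPM in oxidized and 527, 529 and 549 PPM in reduced cells (0.88 ± 0.17, limma adjusted p = 0.00036). ATP18, another subunit, read 2257, 2042 and 2272 PPM against 1360, 1326 and 1519 PPM (0.64 ± 0.15, limma adjusted p = 0.0054). The spread within groups was small for both, and both calls held in every other fit. Genes of the cytochrome bc1 complex gave 2 calls of 9, QCR7 and QCR8, and cytochrome c oxidase COX7, but each of these lost its call without any of 5 libraries, oxidized replicates 2 and 3 and the 3 reduced ones (limma adjusted p up to 0.275). ATP4 (without oxidized replicate 1 or 3 or any reduced library, up to 0.14) and ATP19 (without oxidized replicate 2 or 3 or reduced replicate 2 or 3, up to 0.24) were no firmer.

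The 2 lower genes were NDE2 and COX26. NDE2 is an NADH dehydrogenase that faces the intermembrane space and takes electrons from cytosolic NADH. It read 122, 27.97 and 158 PPM in oxidized and 324, 327 and 399 PPM in reduced cells (-1.92 ± 0.31, limma adjusted p = 9.5e-06). Its isozyme NDE1 stood at 230 PPM in oxidized and 202 PPM in reduced cells on average and did not pass (95% interval of the difference -0.36 to 0.69). COX26, a small protein of cytochrome c oxidase, lost its call without oxidized replicate 2 or reduced replicate 3 (limma adjusted p up to 0.076). Outside the list, SHH4, a paralogue of a succinate dehydrogenase subunit, stood at 11.1, 27.97 and 52.7 PPM against 137, 109 and 165 PPM. FMP43, a subunit of the mitochondrial pyruvate carrier, stood at 520, 410 and 585 PPM against 1016, 722 and 1045 PPM. The outer membrane protein OM14 stood at 863, 736 and 1007 PPM against 2302, 1695 and 1805 PPM. All 3 separated the groups. Genes of the mitochondrial ribosome (72 tested, median 0.06) gave no call.

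Isozymes of central metabolism differed from each other in direction. This set of pairs was drawn up after the values were seen and is given without a test between its members. MDH1, the malate dehydrogenase of the TCA cycle in mitochondria, read 830, 895 and 1218 PPM in oxidized and 589, 629 and 639 PPM in reduced cells (0.64 ± 0.18, limma adjusted p = 0.029), where MDH2 and MDH3 were lower. The MDH1 call was lost without oxidized replicate 3 or any reduced library (up to 0.21). It was the only call among 21 TCA cycle genes, whose median was -0.04. CIT1, the mitochondrial citrate synthase, stood at 979 PPM in oxidized and 982 PPM in reduced cells on average, while the peroxisomal CIT2 stood at 1204 and 1869 PPM. Summed over their 3 genes, malate dehydrogenase transcripts reached 2899 to 3672 PPM in oxidized and 5454 to 7259 PPM in reduced libraries.

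RGI1 and RGI2 are paralogues involved in energy metabolism under respiratory conditions. RGI1 was higher in oxidized cells, at 3551, 3888 and 3911 PPM against 1531, 1963 and 2339 PPM (0.98 ± 0.15, limma adjusted p = 4.0e-06). RGI2 was lower, at 365, 158 and 290 PPM against 626, 680 and 857 PPM (-1.44 ± 0.22, limma adjusted p = 5.7e-06). Neither pair of groups overlapped, and both calls held in every other fit. The ubiquitin conjugating enzymes UBC4 and UBC5, which share their function in the breakdown of short-lived and abnormal proteins, also differed in sign. UBC4 read 1880, 1632 and 1702 PPM against 1240, 1250 and 1151 PPM, and UBC5 365, 401 and 448 PPM against 684, 663 and 579 PPM. Their calls were weaker: that of UBC4 was lost without any 1 of the 6 libraries (limma adjusted p up to 0.17), and that of UBC5 without oxidized replicate 1 or 2 or reduced replicate 1 or 2 (up to 0.13).

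Among sugar uptake genes, 4 of 17 tested hexose and disaccharide genes were higher and 1 was lower, with a median of 0.13. All 5 held in every other fit. SUC2, invertase, which splits sucrose outside the cell and is repressed by glucose, read 498, 475 and 511 PPM in oxidized and 158, 134 and 113 PPM in reduced cells (1.81 ± 0.26, limma adjusted p = 1.2e-06). The oxidized libraries lie close together, and their mean was 3.67 times the reduced mean. HXT6, a high-affinity glucose transporter, stood at 6659, 7850 and 9070 PPM against 3007, 2660 and 3151 PPM (1.41 ± 0.14, limma adjusted p = 5.3e-11), and its near-identical neighbour HXT7 at 1825, 2070 and 2878 PPM against 1190, 1057 and 835 PPM. Reads of HXT6 and HXT7 may have been split between the copies, so the levels of each are uncertain. HXK1, hexokinase 1, read 3130, 3216 and 3067 PPM against 1506, 1460 and 2060 PPM (0.92 ± 0.15, limma adjusted p = 1.5e-05). The glucokinase GLK1, by contrast, stood at 1601 PPM in oxidized and 1881 PPM in reduced cells on average and did not pass.

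HXT5, a transporter of moderate affinity that is made in slow growth, went the other way, at 321, 429 and 617 PPM in oxidized and 1278, 906 and 1181 PPM in reduced cells (-1.32 ± 0.19, limma adjusted p = 9.4e-07). HXT4 did not pass (0.73, limma adjusted p = 0.058). So SUC2, HXT6, HXT7 and HXK1 on the one hand and ICL1, PCK1, ADH2 and HXT5 on the other, all known as genes that glucose holds down, stood on opposite sides of this comparison. Of the 24 genes of glycolysis and fermentation, 1 was higher, PDC5, a pyruvate decarboxylase, whose call was lost without oxidized replicate 3 or reduced replicate 1 or 2 (limma adjusted p up to 0.14).

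**Figure D4:**
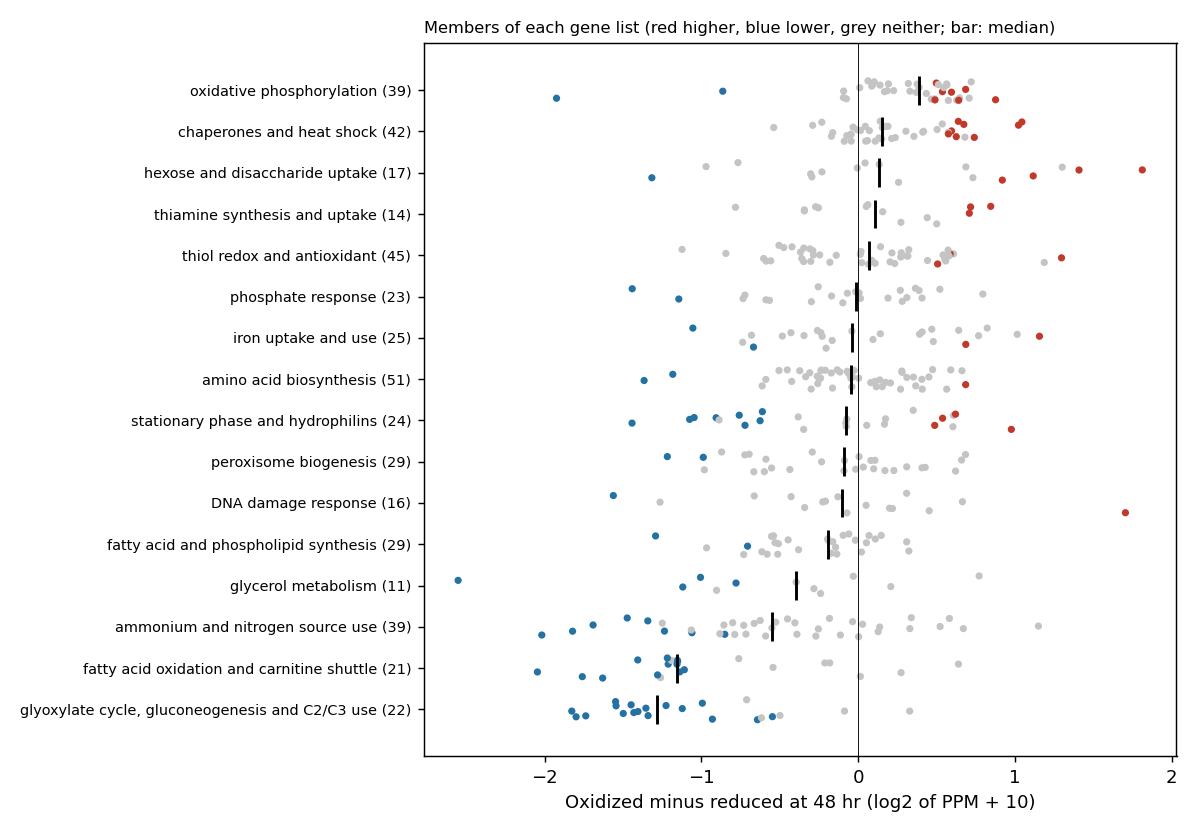
Each point is a tested member of a gene list with at least 2 calls, placed by its oxidized minus reduced difference at 48 hr (log2 of PPM + 10), in red where higher, blue where lower and grey where the threshold was not passed. Black bars are list medians, from -1.28 for C2 and C3 use to 0.39 for oxidative phosphorylation, and the number tested stands in brackets.

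Heat shock genes were higher in 8 of 42 tested and lower in none, with a median of 0.15, and 5 to 7 were higher when single libraries were left out. HSP26, a small heat shock protein that binds unfolded proteins, was the most abundant transcript among the calls, at 32720, 29693 and 37452 PPM in oxidized and 18649, 19358 and 21605 PPM in reduced cells (0.74 ± 0.12, limma adjusted p = 6.9e-06). Its mean was 33288 PPM in oxidized and 19871 PPM in reduced libraries. HSP30, a plasma membrane protein that restrains the proton pump, read 7798, 7617 and 9740 PPM against 3928, 3960 and 4226 PPM. YRO2, a relative of it in the membrane, read 1261, 1473 and 1866 PPM against 593, 738 and 925 PPM (1.02 ± 0.18, limma adjusted p = 0.00011). The heat inducible Hsp90, HSP82, read 3960, 4121 and 4670 PPM against 2597, 2727 and 2843 PPM. Its constitutive copy HSC82 averaged 492 PPM against 470 PPM and did not pass (95% interval of the difference -0.42 to 0.41). HSP10, the mitochondrial cochaperonin, read 2345, 2387 and 2683 PPM against 1369, 1586 and 1692 PPM. None of these called genes had overlapping groups.

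Other chaperone genes were weaker or did not pass. CPR6, a cyclophilin of the Hsp90 system, lost its call without oxidized replicate 2 or 3 or reduced replicate 1 (limma adjusted p up to 0.073), SSA3 without oxidized replicate 3 or reduced replicate 1 or 2 (up to 0.14), and SSC1 without any 1 of the 6 libraries (up to 0.16). The disaggregase HSP104 had a difference of 0.42 (limma adjusted p = 0.11), HSP78 one of 0.07 (0.93), SSE2 one of 0.17 (0.80) and HSP12 one of -0.03 (0.96). Of 8 higher heat shock genes, 4 hold TTCNNGAA in the promoter, against 24 of 34 members that did not pass, so within this list the unit did not go with the calls. Among the 4 are HSP82 with 2 copies and CPR6 with 1, printed here with the unit in capitals.
HSP82: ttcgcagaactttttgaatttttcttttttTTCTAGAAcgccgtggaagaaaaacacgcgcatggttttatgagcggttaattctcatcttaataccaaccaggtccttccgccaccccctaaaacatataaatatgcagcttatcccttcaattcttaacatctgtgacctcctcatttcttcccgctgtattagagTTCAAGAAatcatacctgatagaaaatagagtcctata
CPR6: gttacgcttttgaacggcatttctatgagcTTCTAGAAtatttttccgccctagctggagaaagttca
They lie at chrXVI:98655-98890 and chrXII:573312-573379, both on the minus strand. Promoters of HSP30, YRO2, SSA3 and SSC1 held no TTCNNGAA within the 500 bases read.

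Thiol redox genes, the group closest to what the sensor reports, gave 3 higher and none lower of 45 tested, with a median of 0.07. TSA2, a cytosolic peroxiredoxin that reduces peroxides, read 299, 298 and 295 PPM in oxidized and 95.4, 101 and 158 PPM in reduced cells (1.30 ± 0.28, limma adjusted p = 0.0022), and its call held in every other fit. The oxidized libraries lie close together, on 115 reads in all. AHP1, a thiol-specific peroxiredoxin, read 3053, 3030 and 2862 PPM against 1871, 2215 and 2218 PPM. GRX1, a glutaredoxin of yeast and not the human enzyme of the sensor, read 1493, 1212 and 1623 PPM against 996, 889 and 970 PPM. The AHP1 call was lost without oxidized replicate 1 or 2 or any reduced library (limma adjusted p up to 0.19), and that of GRX1 without oxidized replicate 1 or 3 or any reduced library (up to 0.12). Apart from AHP1 and TSA2, no gene of the thioredoxin system passed (10 tested), and none of the 5 for superoxide and peroxide or the 10 for NADPH supply.

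Of 25 iron genes tested, 2 were higher and 2 lower, with a median of -0.04. FIT2 and FIT3 encode mannoproteins of the cell wall that retain iron bound to siderophores, and they are neighbours on chromosome XV. FIT2 read 2013, 2135 and 2398 PPM in oxidized and 813, 999 and 1128 PPM in reduced cells (1.16 ± 0.16, limma adjusted p = 9.4e-07). FIT3 read 3020, 2722 and 2656 PPM against 1360, 1838 and 2083 PPM, and lost its call without reduced replicate 1 (limma adjusted p = 0.083). In contrast FTR1, the iron permease, was lower at 155, 214 and 200 PPM against 481, 344 and 391 PPM (-1.05 ± 0.23, limma adjusted p = 0.0016). SIT1, a siderophore transporter, was lower at 332, 298 and 337 PPM against 485, 613 and 466 PPM, but lost its call without any 1 of the 6 libraries (up to 0.23). All 4 promoters hold the Aft1 element TGCACCC, which stood in 2.35% of all promoters, so the letters alone did not separate the directions. Those of FIT2 (4 copies) and FIT3 (2) are printed with the element in capitals.
FIT2: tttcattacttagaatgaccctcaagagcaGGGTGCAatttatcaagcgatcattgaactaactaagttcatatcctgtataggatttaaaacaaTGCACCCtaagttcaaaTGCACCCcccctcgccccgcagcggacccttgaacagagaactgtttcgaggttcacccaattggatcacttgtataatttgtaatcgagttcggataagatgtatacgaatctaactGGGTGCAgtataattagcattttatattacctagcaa
FIT3: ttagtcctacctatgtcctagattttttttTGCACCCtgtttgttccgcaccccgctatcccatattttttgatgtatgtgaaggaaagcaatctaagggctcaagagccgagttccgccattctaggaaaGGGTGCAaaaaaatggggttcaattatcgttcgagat
They lie at chrXV:1059170-1059436 (plus) and chrXV:1061203-1061370 (minus). The zinc transporter ZRT1 was higher at 3153, 2843 and 3811 PPM against 1958, 2131 and 2136 PPM, a call lost without oxidized replicate 3 (limma adjusted p = 0.073). The sodium pumps ENA1 and ENA2, near-identical copies of which reads may be shared, were lower, at 99.6, 46.6 and 94.9 PPM against 336, 252 and 233 PPM for ENA1 (-1.69 ± 0.30, limma adjusted p = 8.9e-05). Summed with ENA5 they stood at 83.9 to 221 PPM in oxidized and 436 to 635 PPM in reduced libraries.

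Genes of stationary phase and of small hydrophilic stress proteins went both ways, with 4 higher and 8 lower of 24 tested and a median of -0.08. DDR2, a small stress protein, read 2987, 2993 and 3442 PPM in oxidized and 5587, 4925 and 5437 PPM in reduced cells (-0.76 ± 0.14, limma adjusted p = 0.00011). FMP16 read 830, 876 and 1065 PPM against 1987, 1888 and 1850 PPM, and SPG1, needed for survival at high temperature in stationary phase, 874, 587 and 870 PPM against 1543, 1376 and 2008 PPM. NCE103, carbonic anhydrase, read 1018, 671 and 933 PPM against 2107, 1301 and 1557 PPM. Each of these 4 was lower in all oxidized libraries and held in every other fit. SPI1, a cell wall protein of stationary phase, was higher at 3728, 4018 and 4343 PPM against 2207, 2819 and 2865 PPM, but lost its call without reduced replicate 1 (limma adjusted p = 0.076). SIP18, a hydrophilin, was higher at 4048, 3888 and 4243 PPM against 2933, 2643 and 2805 PPM, and lost it without oxidized replicate 1 or 3 or reduced replicate 2 or 3 (up to 0.12). The window of SIP18 overlaps that of YMR175W-A on the same strand, which was also higher, so these 2 calls share reads.

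Some other calls are given here, most of them of genes in no list. YLR307C-A, a small protein of unknown function next to the chitin deacetylase CDA1, read 1294, 811 and 1028 PPM in oxidized and 4252, 3608 and 2948 PPM in reduced cells (-1.79 ± 0.17, limma adjusted p = 5.3e-11). CDA1, an enzyme of the spore wall, read 33.2, 46.6 and 52.7 PPM against 149, 126 and 188 PPM, and SPS100, another spore wall protein, 476, 429 and 448 PPM against 1522, 1007 and 1316 PPM. The windows of YLR307C-A and CDA1 overlap by 78 bp on opposite strands. PHD1, an activator of filamentous growth, was higher at 586, 755 and 759 PPM against 353, 235 and 308 PPM (1.21 ± 0.22, limma adjusted p = 0.00013), as was SHM2, the cytosolic serine hydroxymethyltransferase, at 885, 932 and 1107 PPM against 465, 503 and 564 PPM (0.92 ± 0.18, limma adjusted p = 0.00052). CPA1, a subunit of carbamoyl phosphate synthetase in arginine synthesis, was the only higher gene among 51 tested for amino acid synthesis, where 2 were lower and the median was -0.05. It read 1869, 1594 and 1945 PPM against 1265, 1082 and 1008 PPM.

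Lipid synthesis held 2 lower genes of 29 tested, with a median of -0.19. OLE1, the fatty acid desaturase, read 343, 447 and 411 PPM in oxidized and 1402, 747 and 925 PPM in reduced cells (-1.29 ± 0.19, limma adjusted p = 2.0e-06). FAS1, a fatty acid synthase subunit, read 752, 634 and 596 PPM against 1149, 1015 and 1075 PPM (-0.71 ± 0.16, limma adjusted p = 0.0043). Both calls held in every other fit, and no member of the ergosterol list (26 tested) passed. The growth genes gave few calls. Over all genes tested 1.42% were higher and 2.43% lower, and at these shares a short list holds few calls or none. RPL41B alone was lower among 138 cytosolic ribosomal protein genes (3418, 3701 and 3088 PPM against 5795, 5563 and 5467 PPM, -0.72 ± 0.13, limma adjusted p = 9.0e-05), whose median was -0.11. RLP7 alone was higher among 86 of ribosome biogenesis, a call lost without any 1 of the 6 libraries (limma adjusted p up to 0.16). Histones (10 tested), genes of the cell cycle and of daughter cells (34), mRNA decay (17) and NAD metabolism (18), all short lists, had none. In the last 2 groups DHH1 and PNC1 had differences of -0.33 and 0.09 (limma adjusted p = 0.58 and 0.87).

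Thiamine genes were higher in 3 of 14 tested: THI11, THI12 and THI13, enzymes of the pyrimidine branch. With THI5 they are near-identical copies at chromosome ends, so their reads may be shared. The sum of the 4 stood at 2334, 2694 and 3168 PPM in oxidized and 1340, 1796 and 1925 PPM in reduced libraries, which do not overlap. Each call rested on single libraries: THI11 lost it without oxidized replicate 3 or reduced replicate 1 (limma adjusted p up to 0.10), THI12 without oxidized replicate 3 or reduced replicate 1 or 3 (up to 0.20) and THI13 without oxidized replicate 2 or 3 or reduced replicate 1 or 2 (up to 0.29).

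The called genes were compared with the same sort at 72 hr, in 6 other libraries, where 9.61% of genes passed. Both ages were tested in the same fit, with the spread of each gene taken from all 12 libraries. Passing at 72 hr is therefore not independent of passing at 48 hr. Of the 184 calls, 174 had the same sign at 72 hr, 130 passed there in the same direction (49 higher and 81 lower), 52 did not pass and 2 passed in the opposite direction. The median difference of the 68 higher genes was 0.81 at 48 hr and 1.02 at 72 hr, and that of the 116 lower genes -1.22 and -1.17. A difference between the ages was tested by the interaction term, which 37 of all 4776 genes passed (0.775%), 9 of them among the 184. Of these, HSP26, HSP30, HSP82, CPR6, SPI1 and THI12 were higher at both ages with the larger difference at 72 hr. For HSP26 it was 0.74 at 48 hr and 1.63 at 72 hr, and for HSP82 it was 0.64 and 1.53. PRP46, a splicing factor, and YER163C, a γ-glutamyl cyclotransferase of glutathione breakdown, were lower at 48 hr and higher at 72 hr. YER163C read 144, 131 and 174 PPM in oxidized and 353, 378 and 331 PPM in reduced cells at 48 hr (-1.20 ± 0.24, limma adjusted p = 0.00066). SIP18 was higher at 48 hr and had a difference of -0.29 at 72 hr, which did not pass (limma adjusted p = 0.24). For the genes of C2 and C3 use the interaction passed in none of 22, with list medians of -1.28 at 48 hr and -1.58 at 72 hr.

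**Figure D5:**
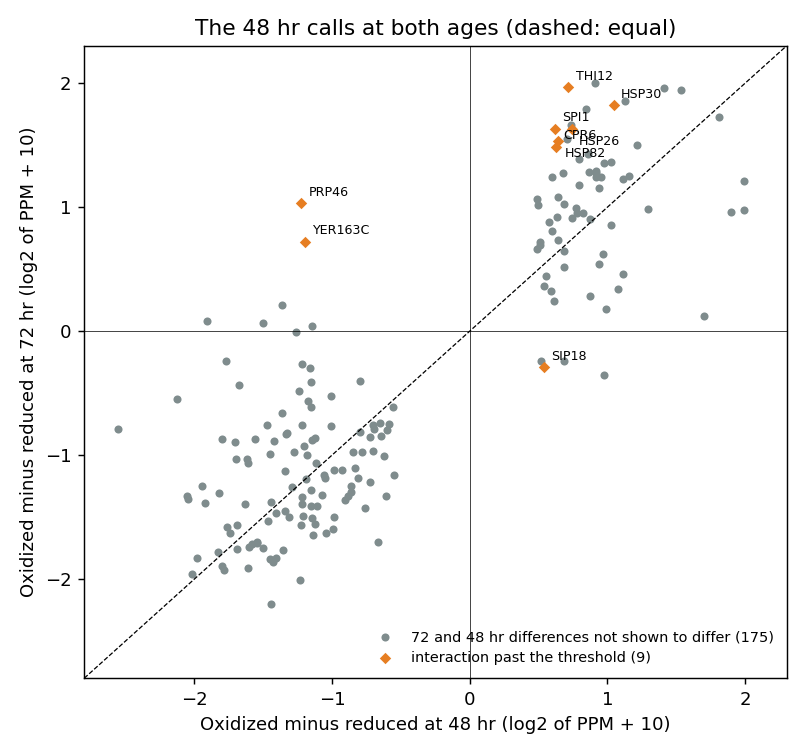
Each point is 1 of the 184 genes called at 48 hr, with its oxidized minus reduced difference (log2 of PPM + 10) at 48 hr on the x axis and at 72 hr on the y axis, where the dashed line marks equal differences. Orange diamonds are the 9 genes whose interaction passed the threshold, 6 of them above the line among the higher genes, and PRP46, YER163C and SIP18 with opposite signs.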

How the data were processed

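RNA of sorted cells was made into 3′ libraries with molecular identifiers. The authors aligned reads with Bowtie2 to sacCer3, removed duplicates by molecular identifier, counted reads around the transcription termination site of each gene (350 bp before it and 200 bp after it), and deposited PPM values, that is, reads as parts per 1e6 of the library. The version of the aligner, the gene annotation and the use of strand in counting are not given in the sources used here. Of the deposited PPM values, 100% were whole reads (within 0.1 of a read) times the worth of 1 read, from which the depths were taken. The comparison was made on the deposited PPM values on a log scale. No count model was fitted, although whole reads could be recovered. The interval of a read ratio and the floors cover counting error only, and intervals of a difference come from the fitted spread between libraries.

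Of 6645 genes read (553 from rows separated by commas, with 2 broken rows, YCR013C and PYC1, left out), 5927 matched the RefSeq annotation of sacCer3 by symbol or locus tag. All 12 columns were used. Genes that averaged 20 PPM or more were fitted on log2(PPM + 10) with limma 3.58.1 in R 4.3.3, with 4 group means over 12 libraries and a trended prior (45.11 prior degrees of freedom). P-values were two-sided and adjusted by Benjamini-Hochberg, with a threshold of 0.05. Fold changes on this scale understate the change of low genes. On simulated data for this comparison, with 200 of 4756 genes changed, 39% of 2-fold and 69% of 4-fold changes were recovered, and 5 of 113 calls were unchanged genes. The simulated reads had the same spread beyond counting error for every gene, so these rates need not hold for the real genes.

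The members, gene lists and tests were chosen with earlier results of these data known, so list counts are descriptions. Named genes were the 12 largest separated differences in each direction, up to 6 called members of each list in each direction with up to 3 abundant members that did not pass, genes the study names, strain markers, the 3 largest interactions in each direction and the 6 most abundant calls in each direction. Paralogue pairs, and the other genes named, were chosen after their values were seen. Alternatives were a minimum of 50 PPM, no minimum, pseudocounts of 1 and 50 PPM, median-of-ratios scaling, the 6 libraries of 48 hr alone, a replicate block and leaving out each library. Promoters were the 500 bases before the start codon. Near-identical copies (HXT6 and HXT7, ENA1, ENA2 and ENA5, the THI5 family) may share reads, as may genes with overlapping windows, among them those of HSP26, HXK1, TSA2, ALD4, ATP18, CRC1, DUR1,2, ECI1, POT1, GRX1 and SIT1. Some results are not reported here.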

Additional observations from a re-analysis of the deposited data

Results flagged for a closer look

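The difference between oxidized and reduced cells was itself different at 72 hr and at 48 hr for 12 of the genes named, by the interaction term of limma with Benjamini-Hochberg adjustment over 4776 genes. For the heat shock genes the 72 minus 48 hr change was 0.78 for HSP30 (adjusted p = 0.027), 0.86 for CPR6 (0.035), 0.89 for HSP26 (0.00085) and 0.90 for HSP82 (0.0044), all higher in oxidized cells at both ages. SSE2, an Hsp110 chaperone, gave 1.57 (adjusted p = 0.0011), with a difference of 0.17 at 48 hr and 1.74 at 72 hr. The cell wall gene SPI1 gave 1.01 (0.0014) and the thiamine gene THI12, one of the near-identical copies, 1.25 (0.012).

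The estimated signs differed between the ages for the other 5, but of these only YER163C and PRP46 passed at both ages. SIP18 did not pass at 72 hr (limma adjusted p = 0.24). ZPR1 and YIL100C-A did not pass at 48 hr (limma adjusted p = 0.14 and 0.20). SIP18 changed by -0.83 (limma adjusted p = 0.027), from 0.54 to -0.29. YER163C changed by 1.92 (0.00070), from -1.20 to 0.72, and PRP46 by 2.25 (0.00070), from -1.22 to 1.03. ZPR1, a zinc finger protein that helps fold elongation factor eEF1A, changed by 2.301 (0.00019), from -0.72 to 1.59, and YIL100C-A by 2.65 (0.032), from -1.17 to 1.47. YIL100C-A rests on 18 oxidized and 50 reduced reads at 48 hr. The counting window of PRP46 overlaps that of RRD2 by 325 bp on the opposite strand.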

How the results depend on the processing

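Of 184 calls at 48 hr, 71 held in all 13 alternatives, and over 2378 values of called genes 1813 kept the call, 565 lost it and 0 changed direction. Leaving out each library gave 103 to 149 calls in all, 29 to 51 higher and 68 to 116 lower. The lowest total and lower count came without reduced replicate 1, the lowest higher count without oxidized replicate 3. A pseudocount of 1 PPM gave 45 higher genes, and a 2-fold minimum left 104 genes, 17 of them higher. Deviations of same-numbered libraries from their group means correlated at 0.020, 0.009 and 0.009, and those of differently numbered ones at -0.011 to 0.0009. With 3 libraries per group, these values cannot decide whether libraries of the same number shared a culture. With a replicate block 188 genes passed, with 3 calls lost and 7 gained. Median-of-ratios scaling lost 21 of the 116 lower calls and 0 of the 68 higher calls, so part of the lower calls depend on the scaling. The 6 libraries of 48 hr alone lost 40 calls, 32 of them lower. Among genes that did not pass, HSP12 turned to 0.033 with median-of-ratios scaling, CIT1 to 0.059 and HSC82 to 0.058, under a shift of the all-gene median from -0.07 to -0.02. Without single libraries the differences ran from -0.12 to 0.034 for HSP12, from -0.062 to 0.32 for HSP78, from -0.053 to 0.34 for SSE2, from -0.044 to 0.20 for PNC1, from -0.10 to 0.077 for CIT1 and from -0.32 to 0.15 for HSC82, so these genes have no direction here. The cause was not tested. Genes of low PPM rest on few reads, which limits their precision.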
